A study of Mus musculus with 4 samples.

Results

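Immediate early genes are switched on within minutes of a stimulus, from transcription factors already present in the cell. ERK signalling, which in the limb bud is driven by FGFs, acts on them through serum response factor and its ETS-domain partners, and stress kinases act on them through Jun and Atf2 proteins. Dissociating a tissue into single cells is known to induce the same genes, so their level in sorted cells can hold a response to the handling as well as the state of the cells in the embryo. The 10 genes described here code for AP-1 proteins (Fos, Fosb, Jun, Junb, Jund), the related factor Atf3, the zinc-finger factors Egr1 and Egr2, and the early response proteins Ier2 and Ier3. They were taken by symbol from a table of 25239 gene symbols, in which all 10 had a row and all 10 passed the filter on low counts.

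The RNA came from hindlimb bud cells of FVB mouse embryos at embryonic day 11.5. All embryos had a wild-type genotype apart from a reporter at the H11 locus, hsp68-hZRS(404G>A)-mCherry, in which a human ZRS enhancer with the 404G>A change and the hsp68 minimal promoter drive mCherry. Anterior cells were mCherry-positive and central cells mCherry-negative, with 2 libraries of each, so domain and reporter status differ together. Both populations were dissected, dissociated, sorted and snap-frozen, and no undissociated tissue was analysed here. Any part of the handling in the differences between them was not tested. The labels do not say how many embryos went into a library or whether the replicates came from separate litters, and p-values then measure only the spread between these libraries.

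Library totals ranged from 30080925 to 33257383 counts. The 10 genes together took 0.0814% of the counts in the lowest library (95% exact binomial interval on halved counts, since both mates of a pair may be counted, 0.0799% to 0.0828%) and 0.118% in the highest (0.116% to 0.119%). Limb mesenchyme markers were present in all libraries, with Prrx1 between 641 and 717 CPM (counts per 1000000, here scaled by TMM, which sets the libraries to a common level) and Pitx1 between 430 and 483 CPM. Of the 7 listed, Msx1, Prrx2 and Twist1 were called higher in anterior cells (9.56, 3.75 and 1.77-fold) and Hand2 lower (1.71-fold). Markers of other cell types differed as well. The summed level of 10 erythroid markers was 3294 and 8400 CPM in the anterior libraries against 5.97 and 9.48 in the central ones, with the near-identical alpha-globin genes Hba-a1 and Hba-a2 listed at 0 throughout. The 8 macrophage markers summed to 18.7 to 23.2 CPM in anterior and 7.69 to 7.99 in central cells. The 7 myogenic markers summed to 2.35 to 4.17 CPM against 142 to 143, with Myog and Pax7 at 0 in the anterior libraries. The 10 ectoderm markers summed to 10.2 CPM in each anterior library against 55.6 and 181 in central replicates 1 and 2, 8 endothelial markers to 8.10 to 11.9 against 28.3 to 40.0, and 7 Schwann and melanoblast precursor markers to 10.3 to 15.0 against 24.0 to 29.1, with Sox10 and Foxd3 at 0 in the anterior libraries. The part of these cells in the results below was not tested, and in bulk RNA fewer cells of a type and less RNA per cell cannot be told apart.

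The sequence upstream of the start site is shown for the members whose values the account turns on and whose window in the RefSeq promoter table held no annotated exon. Of the 10 members, 8 were searched. Jun is shown because it had the smallest p-value of the members, and Fos because its level differed most between libraries of the same population. Capitals mark matches, on either strand, to the motifs searched: the CArG box bound by serum response factor, the CRE-like TGACNTCA, the AP-1 site TGANTCA, the Egr site GCGNGGGCG, the ETS core CCGGAA, the Sp1 site GGGCGG, the TATA box core (TATAAA) and the CCAAT box. The runs cover the 250 bases before the start (GRCm38.p6), chr4:95052223-95052472 on the minus strand and chr12:85473640-85473889 on the plus strand, read 5′ to 3′.
Jun: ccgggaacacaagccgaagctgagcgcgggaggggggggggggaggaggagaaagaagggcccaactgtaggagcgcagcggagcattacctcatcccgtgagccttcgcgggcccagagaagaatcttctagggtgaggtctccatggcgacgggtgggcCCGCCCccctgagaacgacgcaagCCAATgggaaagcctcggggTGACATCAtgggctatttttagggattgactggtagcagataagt
Fos: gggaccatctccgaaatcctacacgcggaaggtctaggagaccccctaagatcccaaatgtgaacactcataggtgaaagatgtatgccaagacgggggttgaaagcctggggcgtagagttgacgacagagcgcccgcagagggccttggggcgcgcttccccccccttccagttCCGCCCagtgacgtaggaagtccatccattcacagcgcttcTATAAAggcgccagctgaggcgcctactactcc
The TGACATCA of Jun began 45 bases before its start. Jun was the only one of the 8 members with a match to TGACNTCA. Of the 32851 windows searched, called all windows here, 7.49% held a match. Fos was the only one of the 8 with TATAAA (12.4% of all windows). Its window held no CArG box, but sequence beyond these 250 bases was not searched. The CArG box was found in 1.47% of all windows and, among the 8 members searched, only in Egr2. Egr1 and Ier2 were not searched, so nothing is said of their upstream sequence. In Egr2, 2 distinct boxes lay before alternative starts, at chr10:67537484-67537513 and chr10:67537787-67537816 (plus strand, with 10 bases on each side). Egr2 is shown for these boxes because its level, like those of Fos and Egr1, was higher in central replicate 1 than in replicate 2. Its counts there were low, at 77 and 40.
Egr2 first box: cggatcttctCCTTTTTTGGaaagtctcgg
Egr2 second box: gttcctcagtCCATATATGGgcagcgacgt
GGGCGG was found in 6 of the 8 members and in 32.7% of all windows, CCAAT in 4 and in 33.8%, GCGNGGGCG only in Fosb (4.70% of all) and CCGGAA only in Egr2 (12%), and TGANTCA in none (6.75%). In Fosb the Egr site overlapped a GGGCGG. For Jund the window, set by the RefSeq start, ended at chr8:70697738, upstream of the GENCODE gene start at chr8:70698949. It held none of these motifs and is counted among the 8. A member was counted as holding a motif where any of its windows matched, and Egr2 had 5 windows, whereas the shares are per window. G and C made up 47.6% of the Jund window and 54% to 71.2% of the other members' windows. The median over all windows was 52.4%. A match is a run of letters and not a measured site.

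Anterior cells had less Jun and Egr1 RNA than central cells, slightly less Jund and more Atf3, and 6 members did not pass the test. Of the 10 genes, 4 passed edgeR's quasi-likelihood test after Benjamini-Hochberg adjustment (threshold 0.05): Jun, Egr1 and Jund were lower and Atf3 was higher in anterior cells. Over all 14610 genes tested the share called was 22.9%, with 10.7% higher and 12.3% lower (3351 genes, or 2009 without anterior replicate 2). Without a filter on low counts 7 members were called, Fosb, Junb and Ier3 in addition, beside 20.7% of all genes. With the replicate number as a block 5 were called (24.5% of all genes), and at a threshold of 0.01 only Jun and Egr1 (11.6%). The median log2 fold change (anterior minus central) of the members was -0.18, beside -0.01 over all genes tested. The anterior libraries lay entirely above the central ones for 4 members (Junb, Atf3, Ier2, Ier3) and entirely below for another 4 (Fosb, Jun, Jund, Egr1). Fos and Egr2 overlapped. Over all genes tested 63.5% did not overlap, 30.8% with anterior above and 32.6% with anterior below.

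**Figure D1:**
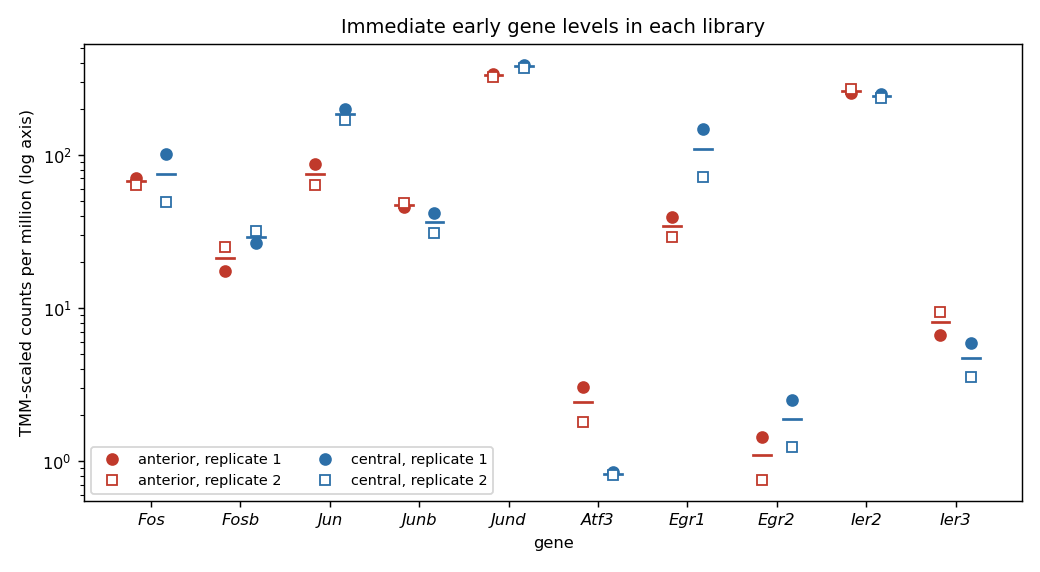
TMM-scaled CPM (log axis) of the 10 genes in each of the 4 libraries, with anterior in red, central in blue, filled circles for replicate 1, open squares for replicate 2 and a bar at the mean of each population. Jun and Egr1 are lower in both anterior libraries than in either central library, and the central libraries differ 2.06-fold for Fos, 2.05-fold for Egr1 and 2.02-fold for Egr2.

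The Jun proteins form AP-1 dimers with each other or with Fos proteins, and their 3 genes did not move alike. Jun (GRCm38 chr4:95049034-95052222, 1 exon) measured 87.3 and 63.3 CPM in the anterior libraries against 200 and 168 CPM in the central ones. The higher anterior library was below the lower central one, so the populations did not overlap. The log2 fold change was -1.29 ± 0.14 (SE), a 2.44-fold lower level (adjusted p = 0.000372, edgeR). Jun also passed a test against a change of 1.5-fold (adjusted p = 0.00364, edgeR), which 7.08% of all genes passed.

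Jund (chr8:70698949-70700616), the Jun protein least dependent on stimulation, had 335 and 324 CPM in anterior and 387 and 371 CPM in central cells. Its populations did not overlap, but the difference was small. The log2 fold change was -0.20 ± 0.06 (SE; adjusted p = 0.0445, edgeR), and without anterior replicate 1, anterior replicate 2 or central replicate 1 the adjusted p-values were 0.186, 0.352 and 0.0621. Junb (chr8:84974484-84978718), often an antagonist of Jun, had 45.9 and 48.6 CPM in anterior and 41.4 and 30.9 CPM in central cells. The anterior libraries were the higher ones, and the log2 fold change of 0.39 ± 0.13 (SE) was not called (adjusted p = 0.0694, edgeR). Without central replicate 1 it was 0.61, and without central replicate 2 it was 0.19.

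Within a library the ratio of counts of these genes does not depend on the scaling. Jun counts per Junb count were 1.90 and 1.30 in the anterior libraries against 4.83 and 5.43 in the central ones. Jun counts per Jund count were 0.261 and 0.196 against 0.517 and 0.452. Neither ratio overlapped between the populations, although an exact permutation test of 2 libraries against 2 cannot give a two-sided p under 0.333. The counts of these genes carry an annotation limit: an antisense transcript shares 232 exon bases with Jun (Junos) and 877 with Jund (Gm11175), and Prdx2 on the opposite strand shares 173 with Junb. Where counting does not use strand, reads from such overlaps cannot be told apart. The strand setting is not given in the sources used here. Prdx2 had 20830 to 22482 counts per library, beside 1000 to 1530 for Junb. Junos and Gm11175 were not among the gene symbols counted.

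The Fos proteins bind DNA as partners of Jun proteins. Fos (chr12:85473890-85477273) measured 70.8 and 63.1 CPM in the anterior libraries against 101 and 49.0 CPM in the central ones. The central libraries stood above and below both anterior ones. The log2 fold change was -0.16 ± 0.26 (SE), with a 95% interval of -0.76 to 0.43 (adjusted p = 0.709, edgeR). Its direction differed with the central library used: without central replicate 1 the log2 fold change was 0.45 (adjusted p = 0.00412, edgeR), and without central replicate 2 it was -0.59 (7.03e-05), each with the lone library assumed to vary like the other population.

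Fosb (chr7:19302696-19310051), a second Fos protein, measured 17.3 and 25.1 CPM in anterior and 26.5 and 31.8 CPM in central cells. Both anterior libraries were lower, and the log2 fold change of -0.46 ± 0.17 (SE) was not called (adjusted p = 0.0918, edgeR). It was -0.75 without anterior replicate 2, -0.59 without central replicate 1, -0.22 without anterior replicate 1 and -0.32 without central replicate 2. Fos counts per Fosb count were 4.09 and 2.52 in anterior and 3.81 and 1.54 in central libraries, higher in replicate 1 of each population and overlapping between the populations.

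Atf3, a stress-responsive partner of Jun proteins (chr1:191170296-191218039), was the only member called higher in anterior cells. Its counts were 101 and 53 in anterior and 26 in each central library, or 3.03 and 1.81 CPM against 0.844 and 0.803. Both anterior libraries were above both central ones. On halved counts, since both mates of a pair may be counted, the 95% exact Poisson interval was 6.92 to 22.2 around 13 in each central library and 17.8 to 39.3 around 27 in the lower anterior library, so these overlapped; such intervals cover counting error only. The log2 fold change was 1.55 ± 0.44 (SE; adjusted p = 0.0349, edgeR). The call was lost without anterior replicate 1 (log2 fold change 1.13, adjusted p-value 0.260), without central replicate 1 (1.59, 0.0568) and without central replicate 2 (1.52, 0.0597).

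Egr1 and Egr2 code for zinc-finger factors that bind GC-rich sites and are direct outputs of ERK and serum response factor. Egr1 (chr18:34859823-34864984) measured 39.4 and 28.9 CPM in the anterior libraries against 147 and 71.7 CPM in the central ones. Its central libraries differed 2.05-fold, and the lower of them still stood above both anterior libraries. The log2 fold change was -1.68 ± 0.29 (SE), a 3.20-fold lower level (adjusted p = 0.00399, edgeR). It passed the test against a 1.5-fold change (adjusted p = 0.0196, edgeR). Without central replicate 1 the log2 fold change was -1.06 and without central replicate 2 it was -2.10. The size of the difference, though not its direction, thus moved by more than 1.5 times with the central library used. In these fits the lone central library was assumed to vary like the anterior ones.

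Egr2 (chr10:67535475-67542188) had 48 and 22 counts in the anterior and 77 and 40 counts in the central libraries, or 1.44 and 0.750 CPM against 2.50 and 1.24. The populations overlapped, and the log2 fold change of -0.76 ± 0.52 (SE) was not called (adjusted p = 0.340, edgeR, 95% interval -1.94 to 0.42). At this depth a difference of the size seen for Egr1 lies inside that interval. The log2 fold change of Egr2 was -1.31 without anterior replicate 1, -0.37 without anterior replicate 2, -0.17 without central replicate 1 and -1.18 without central replicate 2, with adjusted p-values from 0.144 to 0.901.

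Ier2 and Ier3 are short early response proteins, Ier3 with a known role in cell survival. Ier2 (chr8:84661331-84662852) measured 252 and 270 CPM in anterior and 248 and 234 CPM in central cells. All 4 libraries were close, with a log2 fold change of 0.12 ± 0.07 (SE; adjusted p = 0.254, edgeR); the 95% interval was -0.04 to 0.27. Ier3 (chr17:35821684-35822923) measured 6.66 and 9.41 CPM in anterior and 5.91 and 3.55 CPM in central cells. Both anterior libraries were higher, but the log2 fold change of 0.76 ± 0.30 (SE) was not called (adjusted p = 0.100, edgeR). It was 0.996 without anterior replicate 1, 1.18 without central replicate 1, 0.50 without anterior replicate 2 and 0.44 without central replicate 2.

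**Figure D2:**
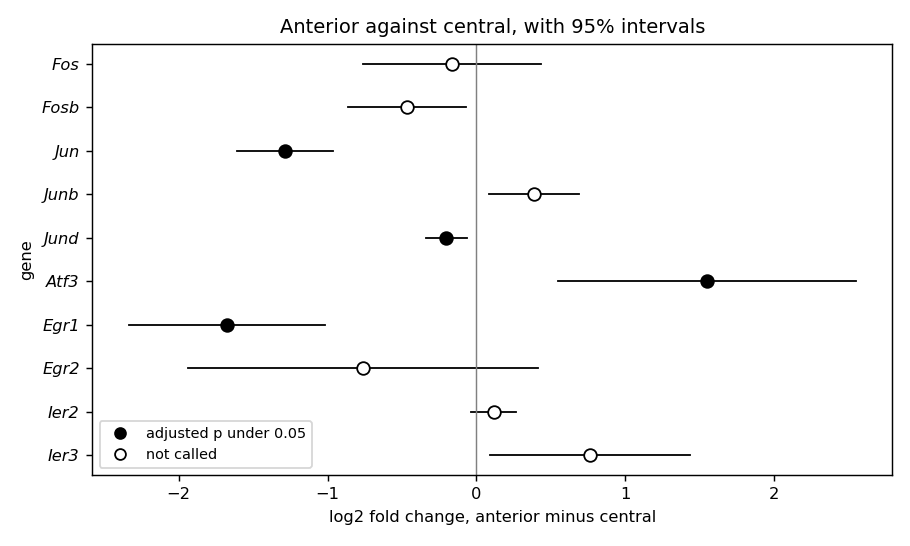
Log2 fold change, anterior minus central, of each gene with its 95% interval from edgeR's quasi-likelihood fit, not adjusted for the number of genes. Filled points passed an adjusted p-value of 0.05. Jun and Egr1 lie farthest to the left, Atf3 farthest to the right with a wide interval, and Jund and Ier2 have the narrowest intervals.

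Per kilobase of merged exon length, the members spanned a wide range of levels. Jund was highest, with mean levels of 197 ± 4.68 CPM per kb in anterior and 227 ± 6.70 in central cells (SD, n = 2 each), followed by Ier2 with 171 ± 8.11 and 158 ± 6.35. The next level in anterior cells was that of Fos (28.4 ± 2.31 CPM per kb), Jun (23.6 ± 5.32) and Junb (20.5 ± 0.841), where Fos overlapped Jun and Jun overlapped Junb. In central cells Jun was the third and stood clear of the next, at 57.6 ± 7.16 CPM per kb, with Fos at 31.9 ± 15.6, Egr1 at 24.4 ± 11.9 and Junb at 15.7 ± 3.24 overlapping their neighbours in that order. Egr1 stood at 7.62 ± 1.66 in anterior cells, overlapping Ier3 at 7.10 ± 1.72. Fosb was at 3.39 ± 0.878 and 4.67 ± 0.603 CPM per kb, with Ier3 at 4.18 ± 1.47 in central cells overlapping it. Atf3 (1.12 ± 0.401 and 0.382 ± 0.0135) and Egr2 (0.322 ± 0.143 and 0.550 ± 0.263) were the lowest in both populations. Their order was reversed between the populations, although in central cells they overlapped.

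The summed level of the 10 genes was 859 and 834 CPM in the anterior libraries against 1160 and 961 CPM in the central ones. Jund and Ier2 made up most of it. Mean sums were 847 ± 17.3 in anterior and 1061 ± 140 in central cells (SD, n = 2), with both anterior libraries below both central ones and an exact permutation p-value of 0.333, the smallest that 2 libraries against 2 can give. Among other genes with at least 5 CPM, the 5 whose log2 CPM profile over the 4 libraries lay closest to that of the sum were C1d, Svbp, Pfn2, Smarca2 and Tmem263, at Euclidean distances of 0.03, 0.04, 0.04, 0.04 and 0.04 on the log2 scale. With 4 libraries this is a description.

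The members differed between libraries of the same population by more, at the median, than the genes tested as a whole. The median absolute log2 difference between replicates was 0.45 over the members in anterior and 0.34 in central cells, beside 0.11 and 0.14 over all genes tested. Fos, Egr1 and Egr2 stood out in central cells, with replicate 1 at 2.06, 2.05 and 2.02 times replicate 2. A ratio of at least 2 between the central libraries, in either direction, was found for 5.99% of all genes tested, and for 0.613% of the 10605 genes with a mean of at least 5 CPM, which include Fos and Egr1. In anterior cells replicate 1 was at 1.12, 1.37 and 1.92 times replicate 2 for Fos, Egr1 and Egr2. No member reached a ratio of 2 there, beside 7.21% of all genes tested and 0.717% of those with a mean of at least 5 CPM.

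Fos and Egr1 stood in nearly the same proportion in both central libraries. Fos counts per Egr1 count were 0.687 and 0.683 in the central libraries, although each gene's level was about 2-fold apart. In the anterior libraries the ratio was 1.79 and 2.18, above both central values. Egr1 counts per Egr2 count were 58.8 and 58.0 in central and 27.4 and 38.5 in anterior libraries. These ratios use the same counts as the fold changes and are given as a description. Fosb differed the other way, with replicate 1 at 0.833 of replicate 2 in central and 0.690 in anterior cells, and Jund and Ier2 were nearly level in both populations, at 0.935 to 1.06. The central libraries also differed in ectoderm markers, as given above, which were higher in replicate 2, and in single myogenic markers: Myog measured 16.0 and 5.87 CPM and Myod1 16.7 and 10.6 in replicates 1 and 2, while Pax3 and Met were higher in replicate 2, so that the sum was 143 and 142 CPM.

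**Figure D3:**
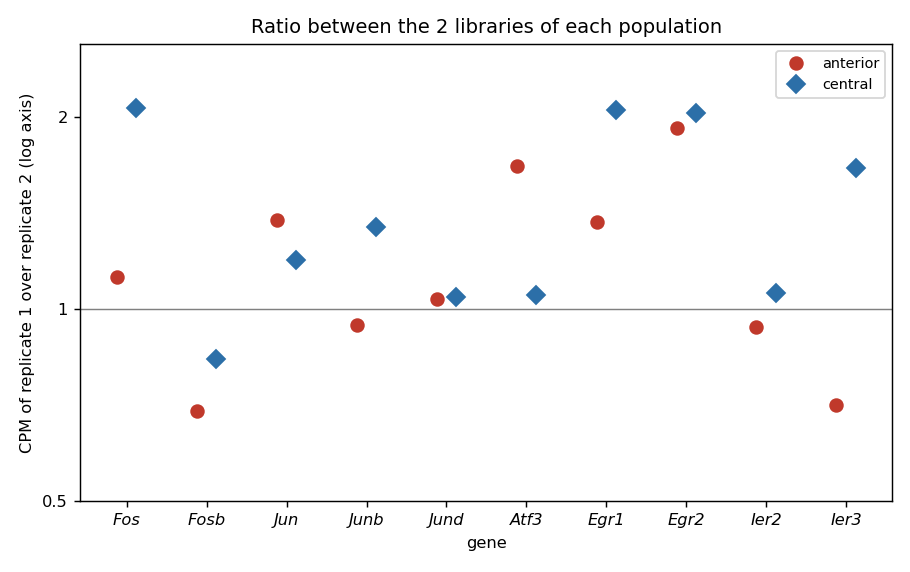
CPM of replicate 1 divided by that of replicate 2 (log axis) within anterior (red circles) and central (blue diamonds) cells for the 10 genes, with a line at equality. The central ratios of Fos, Egr1 and Egr2 are 2.06, 2.05 and 2.02, and Fosb lies below 1 in both populations.

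Other genes of these pathways were taken from 7 lists of related genes. Their counts stand beside a share over all genes tested of 22.9% called, 10.7% higher and 12.3% lower. Of the remaining AP-1 and small Maf genes, 3 of 8 tested were called, all higher in anterior cells (list median 0.11 on the log2 scale), or 1 without anterior replicate 2. Without central replicate 1 the median was -0.04. Maff, a small Maf protein that lacks an activation domain, measured 13.7 and 11.9 CPM in anterior against 5.16 and 6.15 in central cells (log2 fold change 1.18, adjusted p = 0.00282, edgeR). Mafg rose by 0.56 and Atf2 by 0.22 on that scale (adjusted p-values 0.0130 and 0.0377). Fosl1 and Batf were below the filter on low counts.

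Of 29 other early response genes tested, 3 were called higher and 6 lower, with a list median of -0.04 that was 0.05 without central replicate 2. Nr4a3, an orphan nuclear receptor, had 0.180 and 0.136 CPM in anterior and 2.14 and 1.30 CPM in central cells (log2 fold change -3.40, adjusted p = 0.00459, edgeR). Myc, the growth-promoting factor, had 9.62 and 7.02 CPM against 29.6 in both central libraries (log2 fold change -1.83, adjusted p = 9.69e-05, edgeR). Among the called genes that were higher, Gadd45b, a stress-induced regulator of MAP kinase signalling, had 13.0 and 9.82 CPM against 6.79 and 3.18 (log2 fold change 1.20, adjusted p = 0.0310, edgeR). The other called genes were Btg1, Btg2, Ccn1 and Rhob, which were lower, and Ier5l and Trib1, which were higher. Nr4a1, Dusp1, Zfp36 and Klf4, which are commonly induced together with Fos, were not called, with log2 fold changes between -0.39 and 0.16; these 4 were chosen after their values were seen.

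The genes that carry the signal to the members were listed next. None of the 6 genes for serum response factor and its cofactors was called by edgeR, beside 22.9% of all genes tested (median log2 fold change -0.004), 0 at an unadjusted p under 0.05 and 0 by DESeq2 or limma-voom, and no setting other than leaving out central replicate 2, which gave 2 calls, changed that. Srf itself measured 115 and 108 CPM in anterior and 94.2 and 105 CPM in central cells (log2 fold change 0.16, adjusted p = 0.178, edgeR). Of 14 genes of the MAP kinase cascade with Creb1, 2 were called higher, Mapk8 (the Jun kinase JNK1) by 0.30 and Rps6ka2 by 0.29 on the log2 scale, with adjusted p-values of 0.0203 and 0.0324 (list median 0.12). With library size alone, upper-quartile factors or DESeq2 there was 1 call, without anterior replicate 1 or anterior replicate 2 there were 0, without central replicate 1 there were 1 higher and 1 lower, and without central replicate 2 there were 4, all higher.

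The ERK-induced feedback inhibitors and Etv genes were mostly higher in anterior cells, where Jun and Egr1 were lower. Of 13 tested, 11 were called and all 11 were higher in anterior cells, with a median log2 fold change of 0.86. Dusp6, the phosphatase that removes the activating phosphates from ERK, measured 536 and 656 CPM in anterior against 212 and 230 in central cells (higher by 1.43 ± 0.10 SE on the log2 scale, adjusted p = 2.33e-05, edgeR). Spry1 and Spry4, inhibitors of receptor tyrosine kinase signalling, were higher by 2.02 and 2.01 on the log2 scale. Etv4 and Etv5, ETS factors induced by FGF in limb mesenchyme, were higher by 1.48 and 1.33. Spred3 and Dusp4 were not called, at -0.15 and 0.12. This contrast between lists is a description; the direction of the feedback genes was known from earlier results of these data.

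Genes of 2 stress programmes were also listed. Of 12 heat shock genes, 6 were called higher by 0.19 to 0.48 on the log2 scale and 1 lower (list median 0.31). Bag3, a co-chaperone, and Hsp90aa1 rose by 0.48 and 0.37, while Hspb1 had 2.04 and 2.86 CPM in anterior and 4.61 and 10.4 in central cells (log2 fold change -1.62, adjusted p = 0.0188, edgeR). The inducible Hspa1a and Hspa1b were not called, with values of 3.31 to 7.47 CPM and 6.73 to 13.0 CPM over the 4 libraries. Without anterior replicate 2 only 2 heat shock genes were called, and without central replicate 2 there were 7, with 0 lower.

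Of 7 integrated stress response genes tested, the programme that also induces Atf3, 3 were called higher and 1 lower (list median 0.23, or 0.04 without anterior replicate 2 and 0.09 without central replicate 2). Trib3, a pseudokinase induced by Atf4, had 2.76 and 4.50 CPM in anterior and 0.779 and 0.525 CPM in central cells (log2 fold change 2.47, adjusted p = 0.00422, edgeR). Asns, the asparagine synthetase, had 109 and 113 CPM against 46.5 and 44.5 (log2 fold change 1.29, adjusted p = 9.16e-06, edgeR). Atf4 itself was higher by 0.23, and Ddit4, an inhibitor of mTOR signalling, was lower by 0.87 on that scale.

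**Figure D4:**
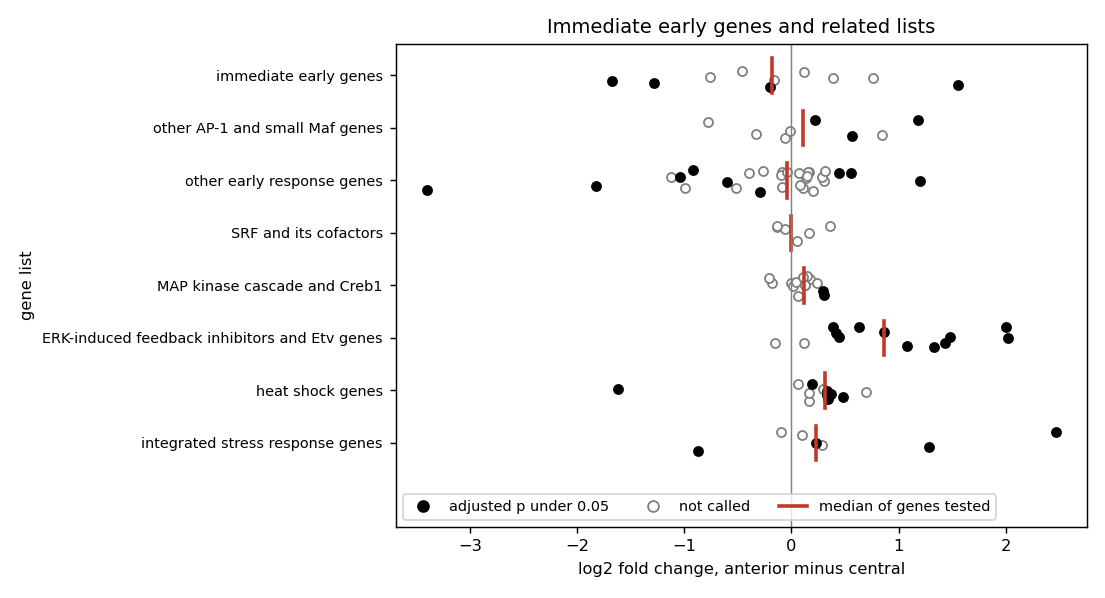
Log2 fold change, anterior minus central, of every tested gene in the immediate early genes and 7 related lists. Filled points passed an adjusted p-value of 0.05 in edgeR and red bars are list medians. The median of the feedback inhibitors and Etv genes is 0.86 and that of the immediate early genes -0.18.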

How the data were processed

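The values are raw read counts per gene symbol, as the authors deposited them. The submitters' processing notes name STAR 2.7.9a, HTSeq, DESeq2 3.16 and the build mm10 without saying how each was used. Strand setting and annotation are not given in the sources used here. Per the labels, libraries were paired-end, at about 25M reads each. Among counts of 1 to 10, 72.8% to 75.6% were even, the pattern of counting both mates, so halved counts were also fitted.

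Genes kept by filterByExpr (14610) were scaled by TMM and compared with edgeR 4.0.16 (R 4.3.3), quasi-likelihood F test, Benjamini-Hochberg over all genes tested, threshold 0.05. SE is the absolute log2 fold change over the square root of F. Replicate differences are on log2(CPM + 0.5). Positions and lengths came from GENCODE M21 (GRCm38, the same assembly as mm10), upstream sequence from RefSeq (GRCm38.p6). Alternatives used DESeq2 1.42.0, limma 3.58.1 (voom), other scalings and filters, halved counts, removal of erythroid genes and Rn45s, the replicate block and leaving out each library.

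Members, lists and tests were chosen with earlier results of these data known. Named genes were all members, from each related list the called genes with the 3 largest changes (at least 1 CPM in a population), Dusp6, Etv4, Etv5, Srf and the 5 genes nearest the summed profile. Cell type markers, and from the related lists Btg1, Btg2, Ccn1, Rhob, Ier5l, Trib1, Nr4a1, Dusp1, Zfp36, Klf4, Spred3, Dusp4, Hspa1a, Hspa1b, Atf4, Fosl1 and Batf, were named outside this rule after their values were seen. The replicates are separate libraries (chi-square per degree of freedom 15.1 between anterior and 8.46 between central replicates). A 3-count floor corresponds to 0.0899 to 0.102 CPM.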

Additional observations from a re-analysis of the deposited data

How the results depend on the processing

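The fall of Jun and Egr1 was called in the main fit and in 10 other scalings, tests, filters, count units and block. Over all 15 fits, including those without a library, log2 fold changes were -1.53 to -1.07 for Jun and -2.10 to -1.06 for Egr1. A fit without a library leaves 1 in that population, which is assumed to vary like the other population. Its p-values and calls therefore rest on less replication. Atf3 was called in each of the 10 other scalings, tests, filters, count units and block (adjusted p-values 0.0105 to 0.0488), and Jund in 9 of those 10, but each kept its call in only 1 of the 4 fits that left out a library. No paired analysis was given as the main result, because the labels do not tie equal replicate numbers to shared embryos. Over all genes tested the deviations of same-numbered libraries correlated at 0.064. Among the 10 members, replicate 1 was the higher in both populations for 6, beside 25.5% of all genes tested, and replicate 2 for 1. With the replicate block, 3586 genes and 5 members were called; Fosb (log2 fold change -0.48, adjusted p-value 0.0128) and Junb (0.40, 0.0354) gained a call and Jund (-0.20, 0.0501) lost it.

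Without a filter on low counts 7 members were called (3 higher, 4 lower), with Fosb, Junb and Ier3 added. A threshold of 0.01 left 1690 genes and 2 members, and a test against a 1.5-fold change left 2 members, Jun and Egr1. Leaving out one library gave 2009 to 3697 called genes, 3 to 6 members, 23 to 45 genes of the related lists (36 with all libraries), a member median of -0.28 to -0.003 and a log2 ratio of the summed level of -0.45 to -0.18. The low ends of the gene and list counts, 2009 and 23, were without anterior replicate 2. The direction of Fos reversed without central replicate 1, to 0.45, against -0.59 without central replicate 2. With the longest transcript in place of merged exons, 1 pair of levels changed order, Jun and Junb in anterior cells. For these changes the cause was not tested. The scaling and leave-one-out alternatives of the summed level were chosen after the data were seen. Egr2 was not tested with a mean count of at least 50. Depth limits Egr2 and Atf3, with 22 to 101 counts per library.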
